A study of Homo sapiens with 6 samples.

Results

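Expression of 9 bitter taste receptor genes, TAS2R31, TAS2R14, TAS2R10, TAS2R13, TAS2R19, TAS2R20, TAS2R30, TAS2R4 and TAS2R5, was examined by bulk RNA sequencing of 143B cells, a human osteosarcoma (OS) cell line. The 9 genes were taken by symbol from the 54308 genes of the deposited table of log2 signals. They had been chosen by results of these same libraries, namely the log2 signals and their differences between groups, with TAS2R31 selected on its higher signal in the knockout, so the differences between groups are given here as descriptions and without p-values. The study asked what deletion of CNTNAP4, a receptor of the secreted protein NELL-1, does to OS cells. Vector control (VC) cells were 143B cells transfected with the vector plasmid, and knockout (KO) cells were 143B cells whose CNTNAP4 gene was deleted with CRISPR/Cas9. Each group had 3 libraries, and values are given in the order of replicates 1, 2 and 3. The labels place both groups 48 h after transfection, while the study's methods describe colonies grown from single sorted cells. The 3 libraries of a group were therefore separate RNA samples of clonal cells, which KO clone each came from was not given in the sources used here, and an effect of the deletion cannot be told apart from a difference between clones. For CNTNAP4 the only value in the 6 libraries was -7.18 on the log2 scale, in VC replicate 3, so its signal gives no check of the labels.

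Bitter taste receptors (TAS2Rs, or T2Rs) are G protein-coupled receptors that bind a wide range of bitter compounds. In the taste bud they signal through the G protein gustducin, whose alpha subunit is GNAT3, then through phospholipase C beta and the inositol trisphosphate receptor to the TRPM5 channel, and the cell releases ATP. Most TAS2R genes have a coding sequence without introns and lie in tandem clusters of closely similar copies, and several are also transcribed outside the tongue, for example in airway cells.

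Of the 9 receptors, 7 lie in the cluster on chromosome 12, minus strand, and TAS2R4 and TAS2R5 lie on chromosome 7, plus strand (GRCh38, GENCODE annotation). TAS2R31 is a gene of 1 exon at chr12:11030387-11031407, and it lies inside introns of PRH1, of the read-through gene PRH1-PRR4 and of long TAS2R14 transcripts, all of them on its own strand. TAS2R19 (chr12:11021619-11022620), TAS2R20 (chr12:10996495-10997875) and TAS2R30 (chr12:11132958-11134644) lie in introns of the same 3 genes. TAS2R13 (chr12:10907926-10909562) lies in introns of PRH1 and PRH1-PRR4, and TAS2R10 (chr12:10825317-10826358) lies in an intron of PRH1. TAS2R14 itself is annotated with 6 exons across chr12:10937406-11171573. On chromosome 7, TAS2R4 (chr7:141778442-141780819) lies in an intron of SSBP1, and TAS2R5 (chr7:141790217-141791367) lies in no intron of another gene.

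Some of the copies on chromosome 12 are similar enough in places that a sequencing read could match more than 1 of them, depending on its length. Over the coding sequence TAS2R31 was 94.7% identical to TAS2R43 and 92.5% identical to TAS2R46, and it was 80.8% identical to TAS2R50, none of them among the 9 genes. Within the 9 genes its identity was 88.9% to TAS2R30, 81.7% to TAS2R20 and 79.0% to TAS2R19, then 63.4% to TAS2R14, 61.7% to TAS2R13, 56.8% to TAS2R10, 51.1% to TAS2R5 and 50.5% to TAS2R4. The first 150 coding bases of TAS2R31 (chr12:11031186-11031335) and of its closest copies are printed to show which bases tell them apart. Capitals mark bases that differ from TAS2R31 at the same position, counted from 1 at the A of the start codon, all sequences are 5′ to 3′ on the minus strand of GRCh38, and there were 10 such differences in TAS2R43, 13 in TAS2R46, 12 in TAS2R30, 30 in TAS2R20, 27 in TAS2R50 and 34 in TAS2R19.
TAS2R31: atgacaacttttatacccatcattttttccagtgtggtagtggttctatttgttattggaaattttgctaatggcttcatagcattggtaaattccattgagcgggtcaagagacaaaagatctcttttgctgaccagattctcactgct
TAS2R43: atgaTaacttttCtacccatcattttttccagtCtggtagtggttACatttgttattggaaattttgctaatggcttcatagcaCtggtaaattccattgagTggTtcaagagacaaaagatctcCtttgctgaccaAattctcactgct
TAS2R46: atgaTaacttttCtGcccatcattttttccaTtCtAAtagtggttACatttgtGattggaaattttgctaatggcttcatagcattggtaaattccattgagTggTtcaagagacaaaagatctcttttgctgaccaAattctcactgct
TAS2R30: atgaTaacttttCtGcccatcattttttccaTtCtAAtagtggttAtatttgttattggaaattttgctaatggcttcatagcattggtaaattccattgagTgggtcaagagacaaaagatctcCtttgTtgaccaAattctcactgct
TAS2R20: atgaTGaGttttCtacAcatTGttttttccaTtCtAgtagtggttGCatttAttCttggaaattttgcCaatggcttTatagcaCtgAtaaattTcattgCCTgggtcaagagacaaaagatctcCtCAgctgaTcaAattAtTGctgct
TAS2R50: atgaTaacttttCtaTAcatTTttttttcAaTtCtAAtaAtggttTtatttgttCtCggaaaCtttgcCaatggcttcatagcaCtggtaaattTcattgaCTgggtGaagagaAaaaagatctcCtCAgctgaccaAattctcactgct
TAS2R19: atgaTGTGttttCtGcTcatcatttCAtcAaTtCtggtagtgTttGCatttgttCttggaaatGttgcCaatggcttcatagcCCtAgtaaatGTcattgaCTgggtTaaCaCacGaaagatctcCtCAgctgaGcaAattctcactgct

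The longest stretch with no difference between TAS2R31 and TAS2R43 ran over 122 bases, coding positions 760 to 881, at chr12:11030455-11030576 in TAS2R31 and chr12:11091349-11091470 in TAS2R43. A read that falls wholly inside this stretch can be placed on either gene.
TAS2R31 and TAS2R43: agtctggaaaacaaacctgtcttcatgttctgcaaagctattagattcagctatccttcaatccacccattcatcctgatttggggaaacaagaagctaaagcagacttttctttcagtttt

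The longest identical run with TAS2R31 was 108 bases in TAS2R46, 56 in TAS2R30, 46 in TAS2R50, 42 in TAS2R20 and 35 in TAS2R19, and 14 in TAS2R14 and TAS2R13. How reads that match several copies were assigned is not given in the sources used here, so the signals of TAS2R31, TAS2R30, TAS2R43 and TAS2R46 are uncertain to the extent that they shared reads.

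The table holds no read counts, but the low signals lay on steps. Of 6173 listed genes with a single GENCODE exon, none of them a TAS2R, 453 to 489 had a value in each library. At low signal, their linear signal multiplied by length in kb fell mostly on whole multiples of 1 smallest value in each library. That value, taken as 1 read in a gene of 1 kb, was -5.76, -5.71 and -5.85 on the log2 scale for the VC libraries and -5.85, -5.84 and -5.82 for the KO libraries. Each library had 113 to 126 such values between 0.5 and 5.5 reads. Of these, 78.7% to 93.5% lay within 0.1 of a whole number. The log2 signal thus behaved as a level per length, and the number of reads behind a low value could be read from it. At higher values the authors' quantile normalization bends the scale, so larger read numbers are approximate. For each receptor the annotated length that put its values nearest to whole reads was used, and this length was not settled for TAS2R14, TAS2R20 and TAS2R5.

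**Figure D1:**
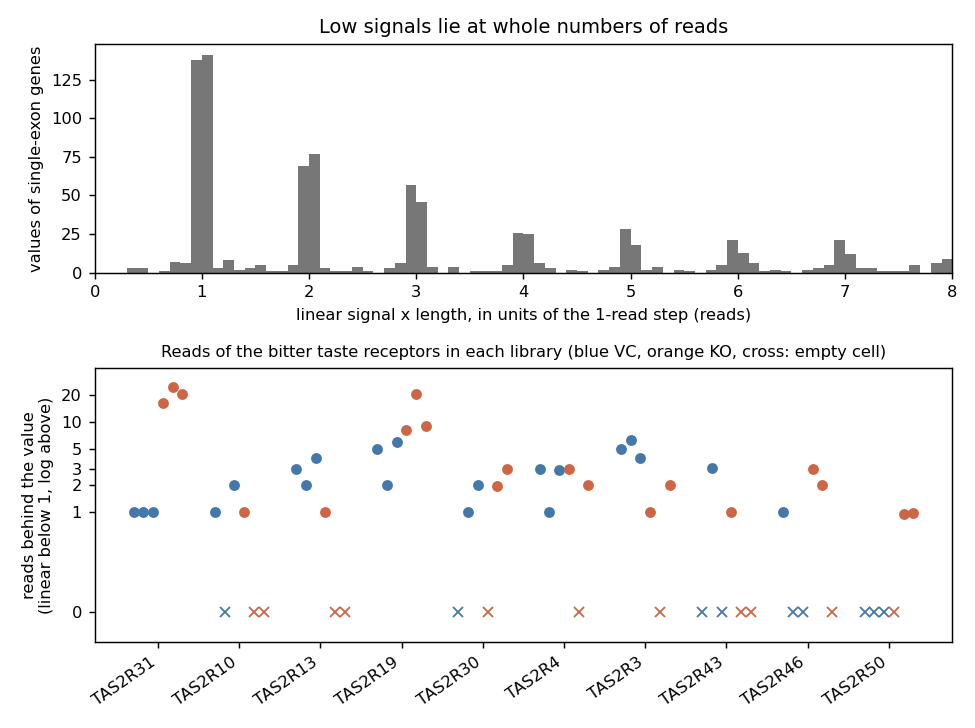
Top, histogram of linear signal multiplied by length, in units of the 1-read value (x axis, reads), for values of single-exon genes pooled over the 6 libraries (y axis, number of values), with peaks at whole numbers. Bottom, reads behind each value of 10 bitter taste receptors (y axis, linear below 1 and logarithmic above), with VC in blue, KO in orange and empty cells as crosses at 0, where TAS2R31 sits at 1 read in the VC libraries and at 16 to 24 reads in the KO libraries.

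TAS2R31, a receptor for the sweeteners saccharin and acesulfame K and for aristolochic acid, was at the level of a single read in every VC library and well above it in every KO library. Its log2 signal was -5.79, -5.74 and -5.86 in VC, and -1.87, -1.25 and -1.49 in KO. All KO values lay above all VC values, with a gap far wider than the range within either group. The VC mean was -5.80 ± 0.06 (SD, n = 3) and the KO mean -1.54 ± 0.31 (SD, n = 3). They differed by 4.26 on the log2 scale with a standard error (SE) of 0.17, or 19.1-fold. With the gene's length of 1021 bases these signals came to 1 read in each VC library and to about 16, 24 and 21 reads in KO. The VC mean thus rested on 3 reads in all, against 61 in KO, and the ratio of reads scaled by the 1-read values was 19.5 with an exact 95% interval of 6.35 to 96.9. The interval covers counting error only and takes each read as an independent molecule. Leaving out 1 library at a time moved the log2 fold change by little, to 4.12 at the lowest (no KO replicate 2) and 4.43 at the highest (no KO replicate 1). It ranked 11 from the top among the 19306 genes that had 2 or more values per group. Among the genes with a value in a library, TAS2R31 stood at percentile 11.1 to 11.8 in VC and 34.4 to 37.9 in KO, so it was a gene of low signal in both groups.

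**Figure D2:**
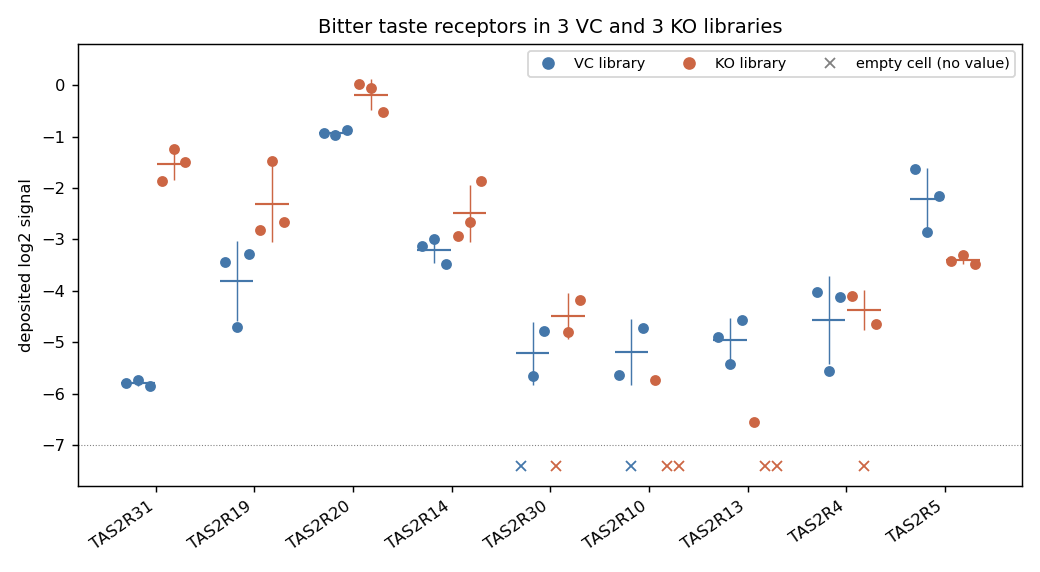
Deposited log2 signal (y axis) of the 9 bitter taste receptors (x axis) in 3 VC (blue) and 3 KO (orange) libraries, with group means as horizontal bars, SD as vertical lines and empty cells as crosses under the dotted line. TAS2R31 has a mean of -5.80 in VC, where TAS2R10 and TAS2R30 each have 1 empty cell, and of -1.54 in KO, while TAS2R5 has its VC values above its KO values.

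TAS2R20, TAS2R19 and TAS2R14 were also higher in the KO libraries, by much less. TAS2R20 had the highest mean of the 9 receptors in both groups, with -0.93, -0.97 and -0.88 in VC and 0.03, -0.06 and -0.52 in KO. The groups did not overlap, and KO stood 1.67-fold above VC, 0.74 on the log2 scale (SE 0.16). Its values stood on 27, 25 and 29 reads in VC and 55, 51 and 37 reads in KO if the coding length of 930 bases applies, and on 67, 63 and 73 against 138, 128 and 93 reads for the RefSeq length of 2344 bases. TAS2R20 was thus the receptor with the most reads in every library under either length.

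TAS2R19 gave -3.44, -4.71 and -3.28 in VC and -2.82, -1.47 and -2.66 in KO. VC replicate 2 was the lowest and KO replicate 2 the highest of the 6, and the groups did not overlap. It was 1.49 higher in KO on the log2 scale (SE 0.54), or 2.81-fold, from 5, 2 and 6 reads in VC and about 8, 21 and 9 reads in KO. The 13 reads of VC against 38 of KO gave a ratio of 2.8 with an exact 95% counting interval of 1.46 to 5.72. This interval leaves out the spread between libraries and is no test, since the gene was picked with this contrast. Without VC replicate 2 the log2 fold change was 1.05, and without KO replicate 2 it was 1.07.

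TAS2R14, one of the most broadly tuned bitter receptors, had -3.13, -3.0 and -3.48 in VC and -2.94, -2.66 and -1.87 in KO. The highest VC value and the lowest KO value were only 0.06 apart, and KO replicate 3 stood above the other libraries. The difference was 0.71 on the log2 scale (SE 0.31), or 1.64-fold, and 0.40 without KO replicate 3. Depending on which annotated length applies, the VC values came from 5 to 15 reads and the KO values from 7 to 36 reads.

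TAS2R30 and TAS2R4 were each missing from at least 1 library, and their groups overlapped. TAS2R30 was empty in VC replicate 1 and KO replicate 1, and replicates 2 and 3 gave -5.65 and -4.78 in VC against -4.80 and -4.18 in KO. Its log2 fold change was 0.73 (SE 0.42). For the coding length of 960 bases it came from 3 reads in VC and 5 in KO, a ratio of 1.59 with a counting interval of 0.31 to 10.3. These reads were too few to settle a direction for TAS2R30. TAS2R4, a receptor for denatonium, had -4.03, -5.56 and -4.13 in VC, while KO replicate 1 gave -4.10, KO replicate 3 gave -4.65 and KO replicate 2 was empty. Its log2 fold change was 0.20 (SE 0.56). For the coding length of 900 bases its 7 reads in VC against 5 in KO gave a ratio of 0.683 with an interval of 0.171 to 2.5. The ratio lies below 1 since the empty KO cell counts as 0 reads there. The direction of TAS2R4 was thus not settled.

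TAS2R5 was the 1 receptor with 6 values that was lower in KO. It had -1.64, -2.86 and -2.16 in VC and -3.42, -3.31 and -3.47 in KO, with the KO values close together and below every VC value. The log2 fold change was -1.18 (SE 0.31), and KO stood at 0.442 of VC on the linear scale. Without VC replicate 1 the log2 fold change was -0.89. For the annotated length of 1151 bases the signals came to 20, 8 and 15 reads in VC and 6, 7 and 6 reads in KO.

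TAS2R13 and TAS2R10 had a value in only 1 KO library each and were not fitted. TAS2R13 had -4.89, -5.42 and -4.57 in VC and -6.55 in KO replicate 1, with KO replicates 2 and 3 empty. That was 3, 2 and 4 reads in VC against a single read in KO, and the ratio of 0.106 had a counting interval of 0.00243 to 0.767. That interval too is a description and no test. TAS2R10, a broadly tuned receptor that strychnine activates, had -5.64 and -4.73 in VC replicates 1 and 3 and -5.73 in KO replicate 1, with the other 3 libraries empty. Its 3 reads in VC and 1 in KO are too few for a fold.

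Across the 9 receptors 46 of 54 cells held a value, 25 of 27 in VC and 21 of 27 in KO, and the 8 empty cells fell on TAS2R30, TAS2R4, TAS2R13 and TAS2R10. An empty cell in a gene of this length stood for 0 reads on the read scale, where a value as low as 1 read was listed. Of the 9 genes, 7 had 2 or more values per group and entered the limma fit over all genes. At an adjusted p under 0.05, 3 of these 7 fell under the rule, 2 higher and 1 lower in KO. This is no test of the receptors, since they were picked with this contrast. The same rule called 32.9% of all 19306 genes tested, 13.1% higher and 19.8% lower. In the range of mean signal that the receptors span, from -4.85 to -0.55, 27.0% of 4955 genes were called and 9.53% were called higher. The 5 receptors with a value in all 6 libraries had groups that did not overlap, 4 higher in KO and 1 lower, against 59.3% of the 17698 genes with 6 values, 22.6% higher and 36.7% lower, and 57.1% of all genes tested. The median log2 fold change of the other 6 receptors tested was 0.72, with 5 positive and 1 negative, beside a median of -0.13 over all genes tested and -0.24 over genes in the same range of signal. These counts use the contrast with which the genes were picked.

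By mean log2 signal, a level per length, the order in VC was TAS2R20, TAS2R5, TAS2R14, TAS2R19, TAS2R4, TAS2R13, TAS2R10, TAS2R30 and TAS2R31, with empty cells left out. TAS2R20 stood above every value of TAS2R5, and TAS2R5 above every value of TAS2R14, while from TAS2R14 down to TAS2R30 each receptor overlapped the next. TAS2R31 lay below every listed value of the other receptors in VC. In KO the order began with TAS2R20, TAS2R31, TAS2R19 and TAS2R14. There TAS2R20 stood above every value of TAS2R31, whose lowest value of -1.87 overlapped the range of TAS2R19 and matched the highest value of TAS2R14. The place of TAS2R31 in VC holds for listed values only, since TAS2R31, TAS2R10 and TAS2R30 each had 3 reads over the VC libraries and TAS2R10 and TAS2R30 each had an empty VC cell.

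The summed linear signal of the 9 receptors was 0.896 to 1.19 in VC and 1.67 to 2.04 in KO, with every KO library above every VC library. The sum includes TAS2R31, which was picked for its rise, so this order is a description and no test. It does not describe every receptor, since TAS2R5 was lower in KO and TAS2R13 and TAS2R10 had fewer reads there. Markers of the osteoblast lineage were checked beside the receptors, because the cells are labelled as osteosarcoma. All 9 markers of that list had a value in some library, VIM stood between 10.33 and 10.93, and BGLAP had values in KO replicates 1 and 2 alone. Among 8 tested, ALPL, COL1A1, SPARC and SPP1 were called higher and COL1A2 lower in KO, while RUNX2 (0.21, adjusted p = 0.177), SP7 (-0.05, adjusted p = 0.957) and VIM (0.38, adjusted p = 0.0667) did not pass limma's test. Over all genes tested, 13.1% were called higher and 19.8% lower. With single libraries left out SPP1 passed in 6 of 6 fits, COL1A2 in 3, ALPL and SPARC in 2 and COL1A1 in 1. The summed linear signal of the list was 1390 to 1570 in VC and 1690 to 2100 in KO, most of it from VIM, a general mesenchymal gene. Their part in the receptors' values was not tested.

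Markers of type II taste cells and of tuft cells, which carry bitter receptors in other tissues, were at low levels. Of 11 such genes 10 had a value in some library and 5 could be tested, and their summed linear signal was 0.568 to 0.625 in VC and 0.459 to 0.584 in KO. Choline acetyltransferase (CHAT) had no value in any library, GNAT3 and GNG13 had a value in 1 KO library each, and TRPM5 had 1 value per group, near -8.04. POU2F3, the transcription factor of tuft cells, was called higher in KO, from -3.13, -2.95 and -2.88 in VC to -2.20, -2.19 and -1.93 in KO (log2 fold change 0.88, SE 0.12, limma adjusted p = 0.0106). DCLK1 was called lower (-1.58, SE 0.20, adjusted p = 0.0101). AVIL was also called lower (-1.31, SE 0.35, adjusted p = 0.0394), and this call held in 1 of 6 fits without a library, the fit without KO replicate 2. Immune markers summed to 0.121 to 0.184 in VC and 0.00719 to 0.0595 in KO. Epithelial markers, 4 keratin and adhesion genes, summed to 576 to 640 in VC and 553 to 608 in KO, most of it from KRT18. KRT8 was called higher and EPCAM lower, and each call was kept in 3 of 6 fits with a library left out.

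Of the 16 further bitter receptor genes looked for, 15 are listed in the table, and only 5 of these had a value anywhere. TAS2R3, a receptor for chloroquine that lies beside TAS2R4 and TAS2R5, was the 1 that could be tested. It had -3.56, -3.20 and -3.99 in VC, while KO replicate 1 gave -6.00, KO replicate 3 gave -4.97 and KO replicate 2 was empty, so all VC values lay above the KO values. The log2 fold change was -1.90 (SE 0.41, limma adjusted p = 0.0327), and 15 reads in VC stood against 3 in KO, a ratio of 0.191 with an exact 95% counting interval of 0.0355 to 0.676. The call was lost without VC replicate 1, 2 or 3, at adjusted p-values of 0.0924, 0.0838 and 0.0679.

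The closest copies of TAS2R31 had few reads. TAS2R43, which responds to aloin and also to saccharin, had -4.13 in VC replicate 2 and -5.89 in KO replicate 1, which were 3 reads and 1 read. TAS2R46, a receptor for absinthin and strychnine, had -5.65 in VC replicate 1 and -4.15 and -4.75 in KO replicates 1 and 2. Its 1 read in VC against 5 in KO gave a ratio of 4.78 with an interval of 0.535 to 226. TAS2R50 had 1 read in each of KO replicates 2 and 3, at -5.86 and -5.84, and TAS2R1 had -6.28 in KO replicate 1. The closest copy, TAS2R43, thus had 1 read over the KO libraries where TAS2R31 had 61. Including the 9 genes, 14 of 33 listed TAS2R symbols (42.4%) had a value, none of the 9 TAS2R pseudogenes had 1, and 50 of 406 olfactory receptor genes (12.3%) had 1, beside 45.5% of all genes listed.

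The genes that enclose the chromosome 12 receptors lie on the same strand, and their log2 fold changes differed in sign. PRH1, which encodes an acidic proline-rich salivary protein, had -0.37, -0.21 and -0.30 in VC and 0.81, 0.90 and -0.20 in KO, with all KO values above VC but KO replicate 3 only just (log2 fold change 0.80, SE 0.31, limma adjusted p = 0.102). PRH1-PRR4 was lower in KO, from 0.96, 1.04 and 0.82 in VC to 0.55, 0.12 and 0.51 in KO (-0.55, SE 0.15, adjusted p = 0.0404). That call was kept only without KO replicate 1 or 2, and was lost without VC replicate 1, 2 or 3 or KO replicate 3, with adjusted p-values up to 0.109. PRH1-TAS2R14, a read-through of PRH1 into TAS2R14, had a log2 fold change of 0.43 (SE 0.28, adjusted p = 0.278). The log2 fold change of TAS2R31 was 4.26, beside 0.80 for PRH1, -0.55 for PRH1-PRR4, 0.43 for PRH1-TAS2R14 and 0.71 for TAS2R14. PRH1, PRH1-PRR4 and PRH1-TAS2R14 had a higher log2 signal than TAS2R31 in every library. TAS2R14, whose long transcripts also enclose TAS2R31, lay above it in every VC library. In KO, TAS2R14 lay below it, at -2.94, -2.66 and -1.87 against -1.87, -1.25 and -1.49. Whether reads were counted by strand is not given in the sources used here, and whether reads from introns of the enclosing transcripts contributed to the receptors' signals was not tested.

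Around both clusters 58 other genes are listed and 15 were tested. Of these 0 were called higher and 2 lower in KO, PRH1-PRR4 and TMEM178B, beside 13.1% and 19.8% of all genes tested. The median log2 fold change of the 15 was -0.17. YBX3, the nearest tested gene to the left of the chromosome 12 cluster, had a log2 fold change of 0.11 (SE 0.065, adjusted p = 0.238). SSBP1, which carries TAS2R4 and TAS2R3 in its introns, had 1 of -0.17 (SE 0.096, adjusted p = 0.214). No gene to the right of either cluster had enough values to be tested. TMEM178B fell by 1.73 on the log2 scale (SE 0.24, adjusted p = 0.0118).

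**Figure D3:**
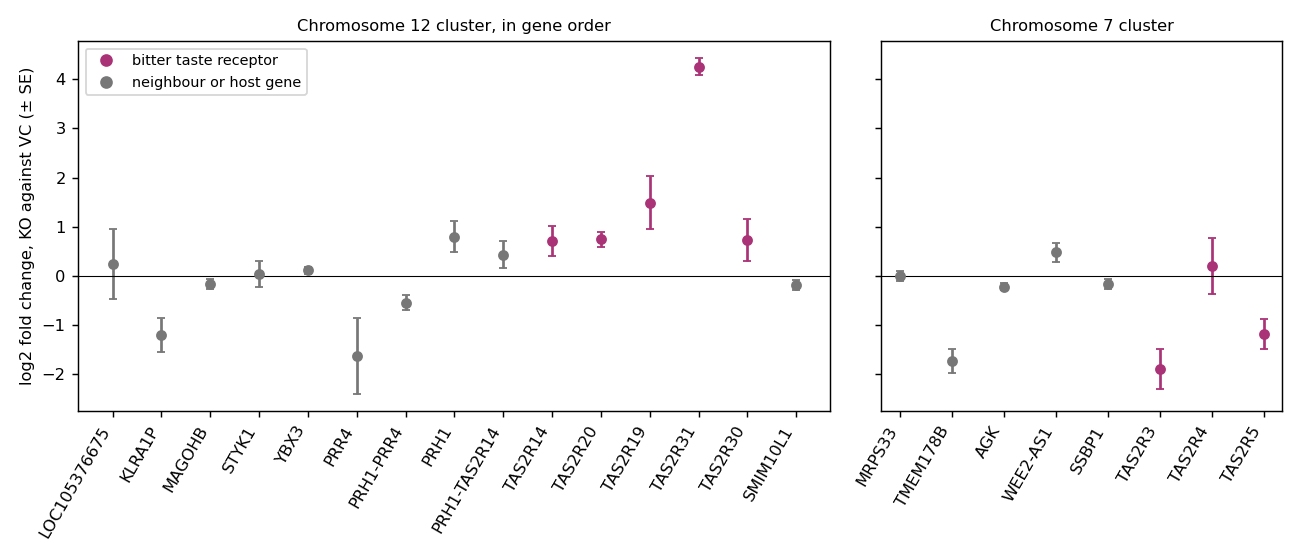
Log2 fold change of KO against VC with its standard error (y axis) for the tested bitter taste receptors (purple) and the tested host and neighbouring genes (grey), in chromosomal order (x axis) in the clusters on chromosomes 12 and 7. TAS2R31 stands at 4.26, the other receptors lie between -1.90 and 1.49, and the neighbours between -1.73 and 0.80.

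The transduction machinery of taste cells was present in part. Of 30 genes in a list of transducers, trafficking proteins, regulators and T1R taste receptors, 24 had a value in some library and 20 were tested, with a median log2 fold change of 0.02. In this list 2 genes were called higher in KO, 1 was called lower and 17 did not pass the test, where 32.9% of all genes tested were called. The 3 calls became 0 without VC replicate 1, 2 or 3 or KO replicate 3, 1 without KO replicate 2 and 7 without KO replicate 1. GNAT3, gustducin's alpha subunit, had -6.80 in KO replicate 3 and no other value, and GNG13, its gamma partner, had -5.84 in KO replicate 2 alone. TRPM5, the channel that depolarizes taste cells, had -8.04 in VC replicate 3 and -8.03 in KO replicate 3. GNAT3, GNG13 and TRPM5 were thus at or near no reads. GNB3, a beta subunit found with gustducin in taste cells, was listed in every library, with 1.07, 1.07 and 1.24 in VC and 0.67, -0.82 and 0.21 in KO. Its groups did not overlap, but it did not pass the test (log2 fold change -1.11, SE 0.39, limma adjusted p = 0.0775). It passed at 0.0281 without KO replicate 1, at 0.0328 with trend and robust estimation and at 0.0479 with 1 added to the linear signal, and its adjusted p lay between 0.0515 and 0.174 under the other alternatives. No value was listed for GNAT1, the ATP release channel genes CALHM1 and CALHM3, RGS21, RTP4 or TAS1R2.

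PLCB2, the phospholipase of the taste pathway, had -2.34, -3.24 and -3.01 in VC and -2.33, -2.66 and -3.50 in KO, groups that overlapped (0.03, SE 0.38, limma adjusted p = 0.951). It was a low signal, at percentile 25.0 to 31.6 of its libraries, and its log2 fold change ran from -0.21 to 0.37 as single libraries were left out, so its direction was not settled. ITPR3, the calcium release channel of taste cells, lay between 4.73 and 4.87 in all 6 libraries (0.01, SE 0.073, adjusted p = 0.922). The other calcium release channels moved in opposite directions. ITPR1 rose from 0.56, 0.42 and 0.53 in VC to 0.77, 1.08 and 1.01 in KO (0.44, SE 0.11, adjusted p = 0.0324), and ITPR2 fell from 2.51, 2.55 and 2.52 to 2.20, 2.08 and 1.95 (-0.45, SE 0.087, adjusted p = 0.0202). TRPM4, a calcium-activated cation channel related to TRPM5, rose from 0.92, 0.68 and 0.80 to 1.06, 1.46 and 1.36 (0.49, SE 0.13, adjusted p = 0.0427). All 3 calls had groups that did not overlap, but they depended on the libraries used. ITPR1 and TRPM4 passed the test in 1 of 6 fits without a library, the fit without KO replicate 1, and ITPR2 in 2 of 6, without KO replicate 1 or 2, with adjusted p-values of up to 0.0943, 0.117 and 0.0735 in the other fits.

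**Figure D4:**
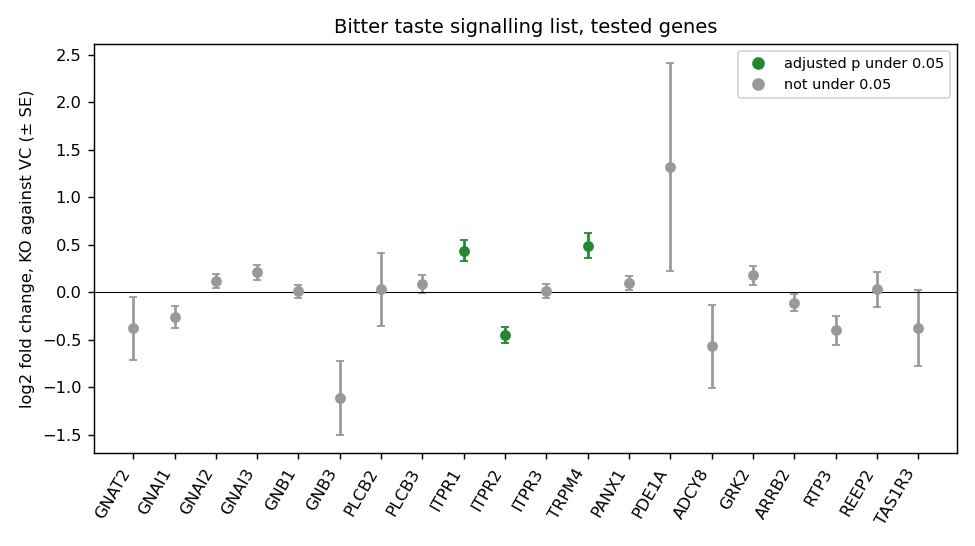
Log2 fold change of KO against VC with its standard error (y axis) for the 20 tested genes of the bitter taste signalling list (x axis), with green for an adjusted p under 0.05 and grey for the rest. ITPR1 (0.44) and TRPM4 (0.49) lie above 0 and ITPR2 (-0.45) below, and the median of the list is 0.02.

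The genes whose pattern over the 6 libraries was most like that of TAS2R31 were found by the root mean square difference of log2 signals centred on each gene's mean, among 17697 genes with 6 values. They were DDIT3 with a difference of 0.18, IL1A and LINC01583 with 0.25 each, C2CD4A with 0.26 and GDF15 with 0.27. DDIT3, a transcription factor of the stress response, had 1.47, 1.57 and 1.36 in VC and 5.58, 6.34 and 5.52 in KO. IL1A, an inflammatory cytokine, went from -0.26, -0.62 and -0.20 to 3.69, 4.71 and 4.05, and GDF15, a secreted stress-induced factor, from -0.64, -1.38 and -1.15 to 2.68, 3.79 and 3.25. LINC01583, a non-coding RNA, had -5.54, -5.49 and -4.88 in VC and -1.48, -0.89 and -0.99 in KO, low signals near those of TAS2R31 and mostly above them. As with TAS2R31, KO replicate 2 was the highest library for all 5 of these genes. The likeness rests on 6 libraries and is a description.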

How the data were processed

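RNA of 143B cells was measured in 3 VC and 3 KO libraries, grouped by their labels. Per the labels libraries were made with a stranded mRNA kit, while the study's methods name total RNA. The submitters' processing notes list CASAVA, STAR, Partek and GRCh38.p13, and the methods also name Partek Genomics Suite and the CLC Genomics software. The authors deposited log2 signals per gene symbol, with sorted values nearly identical between libraries, so they had been quantile-normalized. The linear unit under the log2 scale and the read counts are not given in the sources used here. Every library ranged from -10.87 to 12.04, and 20333 to 21041 genes had a value.

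The signals were used as deposited. The linear model of limma 3.58.1 (R 4.3.3) was fitted to the 19306 genes that had 2 or more values per group. Moderation was by empirical Bayes with no trend. P-values were two-sided and adjusted by the Benjamini-Hochberg method over all these genes. The threshold was an adjusted p of 0.05. A log2 fold change is KO minus VC. SD is between libraries, and SE is the standard error after the empirical Bayes moderation, which also draws on the variance of the other genes fitted. Since the libraries of a group came from clonal cells, p-values measure only the spread between these samples. An exact permutation test of 3 against 3 libraries cannot give a two-sided p under 0.1, and none is reported. The fit was also run on simulated data, drawn as independent normal values around each gene's mean with its own SD. Such data hold no read steps and no shared clonal origin, so that run does not vouch for calls in these libraries.

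Reads were recovered from the steps of low signals, and ratios of reads have exact intervals conditional on the sum, scaled by the 1-read values. The total depth of the libraries is unknown. Coding sequences and positions are from the GENCODE annotation and transcripts on GRCh38, identity is from global alignment with Biopython 1.88, and lengths and gene order are also from a RefSeq gene table. Promoter and protein sequences were not used here.

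The receptors and all gene lists were chosen with earlier results of these data known. The genes named are the 9 receptors, every other TAS2R gene with a value, the main taste transducers and the called genes of the signalling list, host genes and nearest tested neighbours, called neighbours, the 5 genes most like TAS2R31 and CNTNAP4. Called marker genes were named after their values were seen. The alternatives were genes with 6 values only, the upper 50% of genes by mean signal, 1 or 0.01 added to the linear signal, centring of libraries on their median, a repeated quantile normalization, empty cells set to the lowest signal, moderation with trend and robust estimation, no moderation, omission of single libraries, a replicate block and, added after the data were seen, libraries shifted to a common 1-read value.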

Additional observations from a re-analysis of the deposited data

How the results depend on the processing

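TAS2R31 kept its direction under every alternative that could give a value, and so did TAS2R14, TAS2R19, TAS2R20, TAS2R30 and TAS2R5. No receptor entered the fit on the upper 50% of mean signal, whose lowest mean was 1.02. The log2 fold change of TAS2R31 was 0.41 with 1 and 3.66 with 0.01 added to the linear signal, additions that are large beside its VC level, and the median of the other receptors was 0.06 with 1 added. With empty cells set to the lowest signal that median, over 8 genes, was -0.35 and TAS2R4 was at -1.97. Leaving out libraries gave 4.12 to 4.43 for TAS2R31, 0.57 to 0.73 for the median of the others, and 5 to 5 receptors with groups that did not overlap. TAS2R4 ran from -0.30 (without VC replicate 2) to 0.47 (without VC replicate 1). PLCB2 was at -0.15, -0.04, -0.21 and -0.05 without VC replicate 2, VC replicate 3, KO replicate 1 and KO replicate 2, and up to 0.37 without KO replicate 3, and ITPR3 at -0.03 and -0.01 without VC replicate 2 and KO replicate 2, and up to 0.03 without VC replicate 1.

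Counts of calls depended more on the setting, and the cause was not tested. Without single libraries they ran from 1223 (without VC replicate 3) to 8669 (without KO replicate 1) for all genes (6354 with all libraries), 0 to 7 for the signalling list, 1 to 4 for the neighbours and 0 to 1 for the other receptors. With empty cells filled they were 3524, 1, 1 and 0 in the same order. No moderation gave 1, 1 and 0 for the 3 lists, 1 added gave 5, 4 and 0, and trend with robust estimation gave 6 for the signalling list. The neighbours had 1 call in the upper 50%, with median centring and with a common 1-read value. Of all calls 39.8% were higher in KO as deposited, 48.2% of 6238 with median centring and 52.2% of 4850 (2533 higher, 2317 lower) with a common 1-read value.

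Replicate numbers did not pair the libraries, since same-numbered VC and KO libraries had correlations of 0.02, 0.01 and -0.01 in their deviations from the group means. With the replicate number as a block 1533 genes were called, with 0 of the signalling list, 1 neighbour and 0 other receptors, and TAS2R4 was at -0.30.

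Depth limits several receptors. With the lengths chosen as nearest to whole reads, TAS2R10, TAS2R13, TAS2R30 and TAS2R4 rested on 0 to 4 reads per library. With its GENCODE exon length TAS2R4 came to about 8, 3 and 8 reads in VC and 8, 0 and 5 in KO. The VC level of TAS2R31 rested on 1 read per library. Counting error alone thus leaves the size of the TAS2R31 fold as uncertain as the interval given with it. That interval leaves out differences between libraries and clones and reads shared with other copies. It also takes no account of the gene having been picked for its rise.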
